A study of Mus musculus with 6 samples.

Results

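Growth factors that act on epithelium, vessels and connective tissue were followed in mouse eosinophils exposed to extracellular vesicles (EVs) of T helper 2 (TH2) cells. The group was set by name as 10 genes: the transforming growth factor Tgfb1 and its receptor chains Tgfbr1 and Tgfbr2, the epidermal growth factor (EGF) receptor ligands Hbegf, Areg and Tgfa, the vascular growth factor Vegfa, the platelet-derived growth factor chain Pdgfb, the insulin-like growth factor Igf1, and oncostatin M, encoded by Osm. Of these 10 genes, 8 were among the 16254 genes of the count table, and Areg and Tgfa were not analysed here. All 8 passed the filter on low counts, each above the minimum of 0.307 CPM in all 3 samples of both groups. The cells were bone marrow-derived eosinophils of young adult C57BL/6 mice, a bulk culture grown with FLT3 ligand and stem cell factor and then with IL-5. The EV group (n = 3) received 5e9 EVs/ml, purified by size exclusion chromatography and ultrafiltration from the medium of TH2 cells restimulated through the T-cell receptor. The sham group (n = 3) received an equal volume of unconditioned medium taken through the same purification. Poly(A) RNA was sequenced after 24 h, and the comparison asked which genes differed between the EV and sham cultures. The paper reports better survival of cultured eosinophils with EVs of restimulated cells than without treatment. Survival in the sequenced cultures is not given in the sources used here, and its part in the differences between groups was not tested.

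TGF-β1 is secreted as a latent complex, is activated outside the cell, and signals through a complex of the type I receptor Tgfbr1 and the type II receptor Tgfbr2, which phosphorylates SMAD proteins. HB-EGF is made as a membrane-anchored precursor that is shed by metalloproteinases and binds EGF receptors, and oncostatin M is an IL-6 family cytokine that signals through gp130. VEGF-A acts on endothelial cells, PDGF-B on mesenchymal cells and IGF-1 on many cell types, and eosinophils are a recognised source of TGF-β1 in remodeled airways.

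The libraries held 23697620 to 32808674 estimated counts in the sham group and 32260914 to 37874426 in the EV group. The labels name the cells as eosinophils, and all 12 eosinophil marker genes listed were detected. Macrophage markers were detected as well, so detection alone does not settle which cells the culture held. The granule protein gene Prg2 was the most abundant eosinophil marker, at 634580 ± 79536 normalized counts in the sham group and 742952 ± 32619 in the EV group (SD, n = 3 each). A normalized count is the estimated count of a gene after all 6 libraries were brought to a common effective size. Of 13498 genes tested, 12.1% were called higher and 11.6% lower with EVs, 23.7% in all, a call being a Benjamini-Hochberg adjusted p below 0.01 from the quasi-likelihood test of edgeR. Of the called genes 50.9% were higher, a share that was 30.7% without TMM scaling, which moved the median log2 fold change of all genes by -0.15.

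With EVs, 3 of the 8 growth factor and receptor genes rose, 4 fell, and Tgfbr2 did not pass the test, against 12.1% of all genes that rose and 11.6% that fell. Osm and Hbegf rose by 10.1-fold and 13.4-fold, and Tgfb1 rose by 1.59-fold. Pdgfb, Igf1 and Vegfa were 9.88-fold, 6.15-fold and 4.04-fold lower, and Tgfbr1 was 1.57-fold lower. The 2 groups did not overlap in any of the 8 genes, while 49.6% of all genes tested had groups that did not overlap. The directions of all 8 were the same without TMM scaling.

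**Figure D1:**
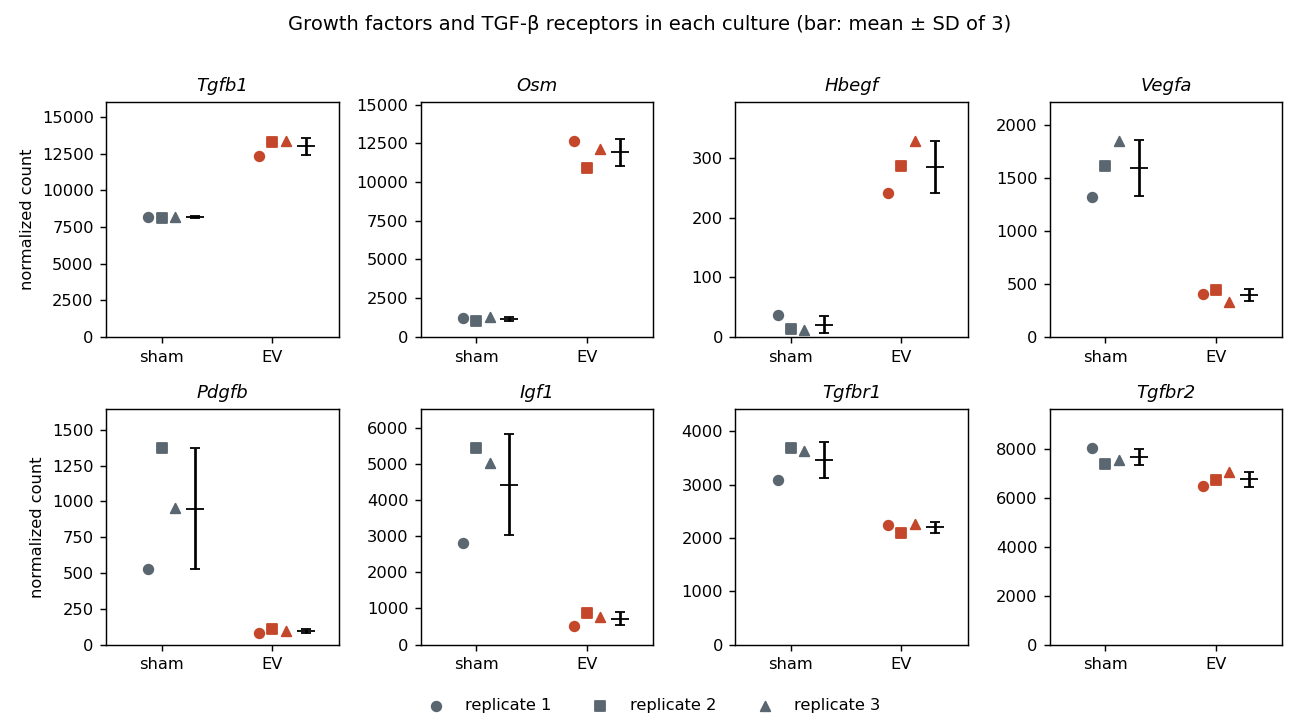
Normalized counts (linear axes from 0, 1 panel per gene) of the 8 genes in each of the 3 sham and 3 EV samples, with the mean ± SD of each group as a bar beside the points. Hbegf ranged from 10.9 to 36.9 in the sham samples and from 242 to 329 in the EV samples, and in each of the 8 panels the groups are apart.

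The stretch of 250 bases before the annotated start is shown for Tgfb1, the ligand that rose, and for Tgfbr1 and Vegfa, which fell, because the start regions of these genes are the sequences nearest to the transcripts counted. The sequences are those of RefSeq on GRCm38.p6, written 5′ to 3′ along each gene's strand: chr7:25686752-25687001 on the plus strand for Tgfb1, chr4:47352972-47353221 on the plus strand for Tgfbr1 and chr17:46032378-46032627 on the minus strand for Vegfa. Capitals mark the SMAD-type motif CAGAC or its complement.
Tgfb1: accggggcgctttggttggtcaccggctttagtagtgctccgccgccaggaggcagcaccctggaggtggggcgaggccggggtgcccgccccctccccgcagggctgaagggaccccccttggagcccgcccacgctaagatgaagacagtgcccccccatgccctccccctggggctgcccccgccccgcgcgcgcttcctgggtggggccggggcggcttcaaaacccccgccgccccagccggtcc
Tgfbr1: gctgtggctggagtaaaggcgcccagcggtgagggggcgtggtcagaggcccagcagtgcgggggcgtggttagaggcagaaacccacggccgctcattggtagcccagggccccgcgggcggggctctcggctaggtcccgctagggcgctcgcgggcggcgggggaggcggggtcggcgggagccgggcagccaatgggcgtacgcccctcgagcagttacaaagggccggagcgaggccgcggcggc
Vegfa: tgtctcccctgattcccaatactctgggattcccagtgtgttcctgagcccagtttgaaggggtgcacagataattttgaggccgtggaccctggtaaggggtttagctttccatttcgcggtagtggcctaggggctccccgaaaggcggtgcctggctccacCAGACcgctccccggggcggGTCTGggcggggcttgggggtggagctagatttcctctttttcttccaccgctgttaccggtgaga
Start regions were at hand for 5 of the 8 genes, in 7 windows. The Tgfbr1 window not shown, chr4:47385966-47386215, held a CAGAC match. Of the Vegfa window not shown, chr17:46025164-46025413, 218 of 250 bases lay in annotated exons, and it held the ACGTG match counted below. All 250 bases of the Igf1 window lay in annotated exons. On both strands, CAGAC lay in 4 of the 7 windows and in 42.2% of all 32851 windows of that length, the hypoxia-type motif ACGTG in 1 of the 7 and in 16.6% of all, and the STAT-type motif TTCNNNGAA in none of the 7 and in 7.02% of all. The motifs were chosen after the expression values were seen, and a match describes letters, not a bound site.

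Tgfb1 lies on chr7:25687002-25705077 (GRCm38). Its normalized counts were 8196, 8129 and 8209 in sham samples 1 to 3 and 12326, 13309 and 13386 in EV samples 1 to 3. The sham samples were nearly level, with a coefficient of variation of 0.524%, and every EV sample stood above them. The log2 fold change was 0.67 (SE 0.055, edgeR adjusted p = 9.41e-06).

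Tgfbr1, the kinase that phosphorylates SMAD2 and SMAD3, lies on chr4:47353222-47414931. It had 3080, 3682 and 3642 normalized counts in the sham samples and 2251, 2086 and 2269 in the EV samples. The lowest sham sample was above the highest EV sample, and the log2 fold change was -0.65 (SE 0.082, edgeR adjusted p = 1.60e-04). Tgfbr2, the receptor chain that binds the ligand first, lies on chr9:116084293-116175360 and had 8010, 7392 and 7550 normalized counts in the sham samples against 6456, 6713 and 7064 in the EV samples. Its groups were apart by a small margin, and its log2 fold change of -0.18 (SE 0.061) did not pass (edgeR adjusted p = 0.0400). Without TMM scaling the log2 fold change of Tgfbr2 was -0.33 (adjusted p = 0.00105), past the threshold.

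Taken per kilobase of the longest protein-coding transcript, the level of Tgfb1 was 7.04, 5.84 and 5.97 times that of Tgfbr1 in the sham samples and 14.5, 16.9 and 15.6 times in the EV samples. The per-kilobase ratio of Tgfb1 to Tgfbr2 was 3.81, 4.09 and 4.04 in the sham samples and 7.10, 7.38 and 7.05 in the EV samples. Ligand transcript stood above each receptor transcript in all 6 samples, and by more in each EV sample than in any sham sample. The larger ratios restate the changes above, since Tgfb1 was higher and both receptors were lower in every EV sample.

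Osm, on chr11:4236420-4241026, encodes oncostatin M. Its normalized counts were 1224.5, 1010 and 1284 in the sham samples and 12658, 10930 and 12148 in the EV samples. The 3 samples within each group lay close together, and the log2 fold change was 3.34 (SE 0.1003, edgeR adjusted p = 2.08e-08). Hbegf, which encodes the heparin-binding EGF-like growth factor, was barely counted without EVs: its estimated counts were 41, 11 and 9 in the sham libraries and 242, 334 and 378 in the EV libraries. The log2 fold change of Hbegf was 3.74 (SE 0.397, edgeR adjusted p = 5.22e-05). Sham sample 1 was the highest of its group in Hbegf, and without it the log2 fold change was 4.54.

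Vegfa, on chr17:46016993-46032369, had 1321, 1615 and 1852 normalized counts in the sham samples and 405, 446 and 333 in the EV samples. Every EV sample was well below every sham sample, with a log2 fold change of -2.01 (SE 0.147, edgeR adjusted p = 4.37e-06). Pdgfb, on chr15:79995874-80014977, had 527, 1370.2 and 950.2 normalized counts in the sham samples and 80.9, 109.7 and 95.7 in the EV samples. The sham samples of Pdgfb were widely spread, with a coefficient of variation of 44.4% and sample 1 the lowest, and the log2 fold change was -3.31 (SE 0.318, edgeR adjusted p = 2.70e-05). Igf1, on chr10:87858265-87937042, had 2827, 5435 and 5027 normalized counts in the sham samples and 520.5, 867 and 764 in the EV samples. Sample 1 was again the lowest of each group, and the log2 fold change of Igf1 was -2.62 (SE 0.249, edgeR adjusted p = 2.52e-05). Igf1 overlaps the antisense gene Igf1os and Pdgfb the antisense gene Gm41361, and whether the counting used strand is not given in the sources used here.

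**Figure D2:**
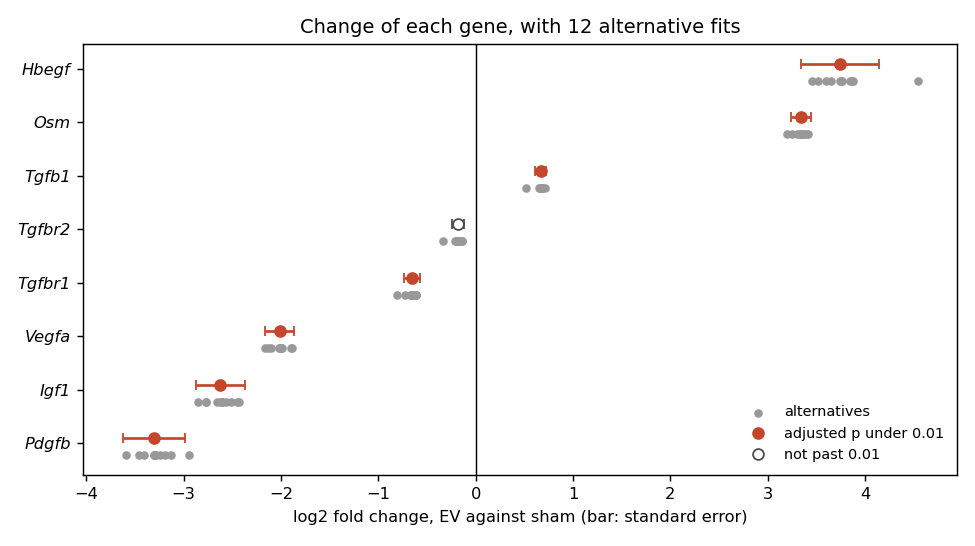
Log2 fold change of each of the 8 genes, EV against sham, as fitted by edgeR, with bars for the standard error, filled points past the test, and grey points for 12 alternative fits. Hbegf and Osm lie at 3.74 and 3.34, Pdgfb at -3.31, and Tgfbr2 nearest to 0 at -0.18.

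Ordered by mean level per kilobase, Tgfb1 was the highest of the 8 genes in both groups, at 3760 in the sham group and 5980 in the EV group. In the sham group it was followed by Tgfbr2 at 945.5, Igf1 at 628, Tgfbr1 at 602, Osm at 516, Vegfa at 462, Pdgfb at 322 and Hbegf at 8.61. From Igf1 to Pdgfb, each gene overlapped its neighbour in that order over the 3 sham samples. With EVs, Osm came next to Tgfb1 at 5243, followed by Tgfbr2 at 833, Tgfbr1 at 383, Hbegf at 120.3, Vegfa at 114, Igf1 at 102 and Pdgfb at 32.4. Hbegf overlapped Vegfa, and Vegfa overlapped Igf1, over the 3 EV samples. The per-kilobase level of Osm was 0.143, 0.119 and 0.150 of that of Tgfb1 in the sham samples and 0.983, 0.786 and 0.869 in the EV samples.

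The other genes of these pathways were grouped into 11 lists of 118 genes, of which 92 were tested. Of those, 17 (18.5%) rose and 28 (30.4%) fell, beside 12.1% and 11.6% of all genes, and the median log2 fold change was -0.28 against -0.014 over all genes tested. The same all-gene shares stand behind the count of each list, and counts in lists of so few genes are descriptions. Among TGF-β ligands and the proteins that hold or release the latent complex, 2 of 10 tested genes (20.0%) rose and 3 (30.0%) fell. Furin, the protease that cleaves the TGF-β precursor, rose (log2 fold change 1.15), while Ltbp3, a latent TGF-β binding protein, Thbs1, encoding thrombospondin 1, and the integrin chain Itgav fell (log2 fold changes -2.92, -1.13 and -0.69). Tgfb2 did not pass the filter on low counts, and Tgfb3 stood at -1.59 (edgeR adjusted p = 0.225).

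Of 10 receptors and coreceptors of the TGF-β family, 5 (50.0%) fell and none rose, with a median log2 fold change of -1.14. Those 5 included the activin and BMP receptor chains Acvr1, Acvrl1 and Acvr2a and the coreceptor endoglin, Eng (log2 fold changes -3.10, -1.61, -1.25 and -1.23). Of 14 SMAD genes and SMAD regulators, 4 (28.6%) fell and none rose. These were the inhibitory Smad6, Pmepa1, Tgif1 and Skil (log2 fold changes -4.35, -1.93, -1.52 and -0.82), each a known negative regulator of the pathway. Other negative regulators in that list, Smad7, Ski, Smurf1 and Smurf2, named after their values were seen, did not pass. Their log2 fold changes were -0.29, 0.03, 0.25 and -0.18 (edgeR adjusted p = 0.0486, 0.816, 0.0288 and 0.0940). Of 14 genes listed as TGF-β targets, 5 (35.7%) rose and 7 (50.0%) fell, with Bhlhe40, a transcription factor, at a log2 fold change of 2.24 and Id3, an inhibitor of DNA binding, at -4.09. Skil and Pmepa1 stand in both lists and are counted again among these 7.

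No gene among 6 tested members of the EGF and ERBB list passed, and the receptors Egfr, Erbb2 and Erbb3 had log2 fold changes of -1.81, -0.56 and -0.06 (edgeR adjusted p = 0.117, 0.557 and 0.884). Of 8 genes of ligand shedding, 3 (37.5%) rose: the metalloproteinase genes Adam19 and Adam8 and Rhbdf2, which carries the sheddase ADAM17 to the surface (log2 fold changes 0.99, 0.27 and 0.73). Adam17 itself stood at -0.22 (adjusted p = 0.112). In the oncostatin list of 6 tested genes, the related cytokines Il6 and Lif rose (log2 fold changes 3.07 and 2.64), and the receptor chains Osmr and Il6st did not pass (edgeR adjusted p = 0.521 and 0.518).

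Ligands and receptors related to the 3 factors that fell came next. In the VEGF list, 3 of 5 tested genes fell, the coreceptors Nrp2 and Nrp1 and the ligand Vegfb (log2 fold changes -2.65, -2.05 and -0.99), and the receptor Flt1 was at 1.44 (adjusted p = 0.0897). The remaining tested gene of that list, the VEGF family ligand Pgf, named after its values were seen, had estimated counts of 28, 0 and 0 in the sham libraries and 75, 149 and 115 in the EV libraries and a log2 fold change of 3.45 (edgeR adjusted p = 0.0237), short of the threshold of 0.01. In the PDGF list, the ligands Pdgfc and Pdgfa fell (log2 fold changes -2.43 and -2.03), and the receptors Pdgfra and Pdgfrb did not pass (adjusted p = 0.348 and 0.148). In the IGF list, 3 of 6 tested genes fell, among them Igf2r and the binding protein Igfbp4 (log2 fold changes -1.82 and -1.08), while the receptor Igf1r stood at -0.06 (edgeR adjusted p = 0.479). Of 12 other secreted growth factors tested, 5 (41.7%) rose and 3 (25.0%) fell, with the vascular ligand Angpt1 at 2.06 and Gdf15 and Gdf3 at -3.35 and -2.33. Il13, a type 2 cytokine among the 5 that rose, had estimated counts of 4, 0 and 0 in the sham libraries and 36, 34 and 42 in the EV libraries. It passed the filter on low counts only through the EV group, where it was high.

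**Figure D3:**
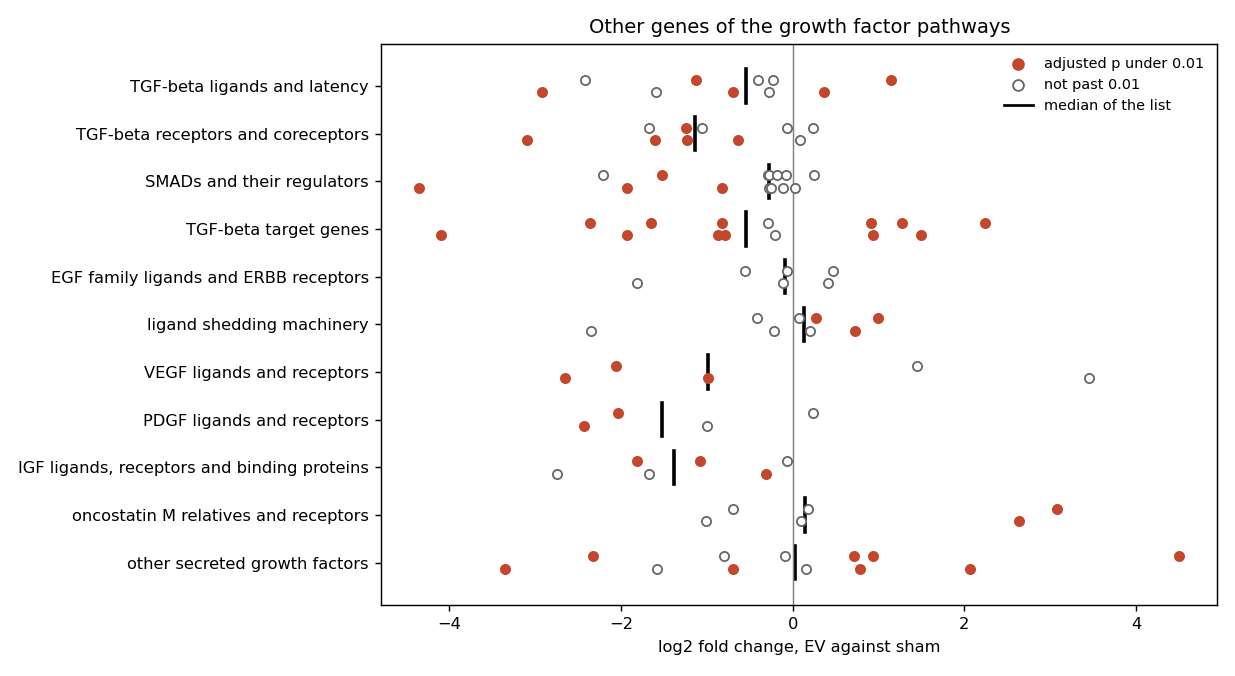
Log2 fold change, EV against sham, of every tested gene in the 11 pathway lists, 1 row per list, with filled points past the test, open points not, and a black line at the median of each list. The 10 TGF-β family receptors hold 5 genes that fell and none that rose, and the 8 shedding genes hold 3 that rose and none that fell.

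By the root mean square difference of log2 (normalized count + 1) over the 6 samples, each gene centred on its own mean, the genes most like Pdgfb were Plxnb2 (0.171), St3gal5 (0.181) and Rab7b (0.193). Those most like Hbegf were Hrc (0.150), F2rl3 (0.242) and Cdh1 (0.271), of which Hrc and F2rl3 had a sham mean of 0.60 normalized counts, so that the added 1 bears on the size of their change and on their place in this order.

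Markers of other cell types moved with some of these genes. In a bulk culture, fewer cells of a type and less RNA per cell cannot be told apart. Behind the count of every marker list stand the 12.1% of all genes tested that rose and the 11.6% that fell. Of 12 macrophage markers, 9 (75.0%) fell and 1 (8.3%), Adgre1, which mouse eosinophils also express, rose, with a median log2 fold change of -2.52. Cx3cr1, among the 9 that fell, was at 0 in all 3 EV samples and passed the filter on low counts only through the sham group. The summed level of the macrophage markers was 46161 to 63488 normalized counts in the sham samples and 40937 to 45703 in the EV samples. Adgre1 made up most of the EV sum, and without it the summed level was 24955 to 42393 in the sham samples and 8852 to 12371 in the EV samples. Relative to the sham mean, the median macrophage marker was at -0.62, 0.31 and 0.21 (log2) in the sham samples and -3.08, -2.19 and -2.15 in the EV samples, beside -0.59, 0.35, 0.24, -3.03, -2.30 and -2.48 for Igf1. Pdgfb followed the same order of samples in the sham group, at -0.74, 0.63 and 0.11, and was at -3.43, -3.00 and -3.19 with EVs. Vegfa had another order, at -0.26, 0.03 and 0.23 in the sham samples and -1.96, -1.82 and -2.24 with EVs, lowest in EV sample 3. Tgfbr1 had the sham order of the median macrophage marker, at -0.17, 0.09 and 0.08, and was at -0.62, -0.73 and -0.61 with EVs, lowest in EV sample 2. Over the 3 EV samples, none of Igf1, Pdgfb, Vegfa and Tgfbr1 had the order of the median macrophage marker. The part of these cells in the lower Igf1, Pdgfb, Vegfa and Tgfbr1 was not tested.

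Eosinophil markers rose with EVs, as Tgfb1 did: 8 of 12 (66.7%) rose and none fell, with a median log2 fold change of 0.67. Their summed level was 942208 to 1186850 normalized counts in the sham samples and 1344100 to 1501580 in the EV samples. Prg2, the largest part of that sum, did not pass (log2 fold change 0.23, edgeR adjusted p = 0.0478), and its groups overlapped. Relative to the sham mean, the median eosinophil marker was at 0.61, 0.62 and 0.69 (log2) in the EV samples, beside 0.59, 0.70 and 0.71 for Tgfb1. Over the sham samples that median was at 0.11, -0.12 and 0.03, while Tgfb1 was nearly level at 0.003, -0.009 and 0.005. Of 7 basophil and mast cell markers tested, 5 (71.4%) rose and none fell. Their summed level was 4510 to 5943 in the sham samples and 11570 to 13681 in the EV samples. Gata2 was its largest part, with a mean of 2464 in the sham group and 5187 in the EV group. Tpsb2, which did not pass the filter on low counts, was at 0 in all 3 sham samples and had estimated counts of 3, 2 and 2 in the EV libraries. The median basophil and mast cell marker stood at 1.79, 1.40 and 1.22 above the sham mean (log2) with EVs, against 3.44, 3.23 and 3.38 for Osm and 3.70, 3.94 and 4.14 for Hbegf. Of 5 stromal and endothelial markers tested, 1 (20.0%), Pecam1, rose and 1 (20.0%), Col1a2, fell, with a median log2 fold change of -2.27. Their summed level was 18188 to 27751 in the sham samples and 11649 to 17370 in the EV samples, and without Pecam1 it was 11240 to 21340 against 1707 to 7618. Relative to the sham mean, the median stromal marker was at 0.26, -0.46 and 0.19 (log2) in the sham samples and -0.83, -3.94 and -4.08 in the EV samples, EV sample 1 standing apart from the others. Cdh5 was at 0 in all 3 EV samples and at most 7.29 in any sham sample. Of 9 neutrophil markers tested 1 (11.1%) rose and 4 (44.4%) fell (summed levels 17190 to 19614 against 15500 to 19067). Of 3 T-cell markers tested only Cd28 (33.3%) fell, and it carried the drop of the summed level (385 to 978 in the sham samples, 134 to 171 in the EV samples). Without Cd28 that level was 92.8 to 271 against 104 to 123. The markers left out of these sums were chosen after seeing the data. The part of these lists in the results was not tested.

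**Figure D4:**
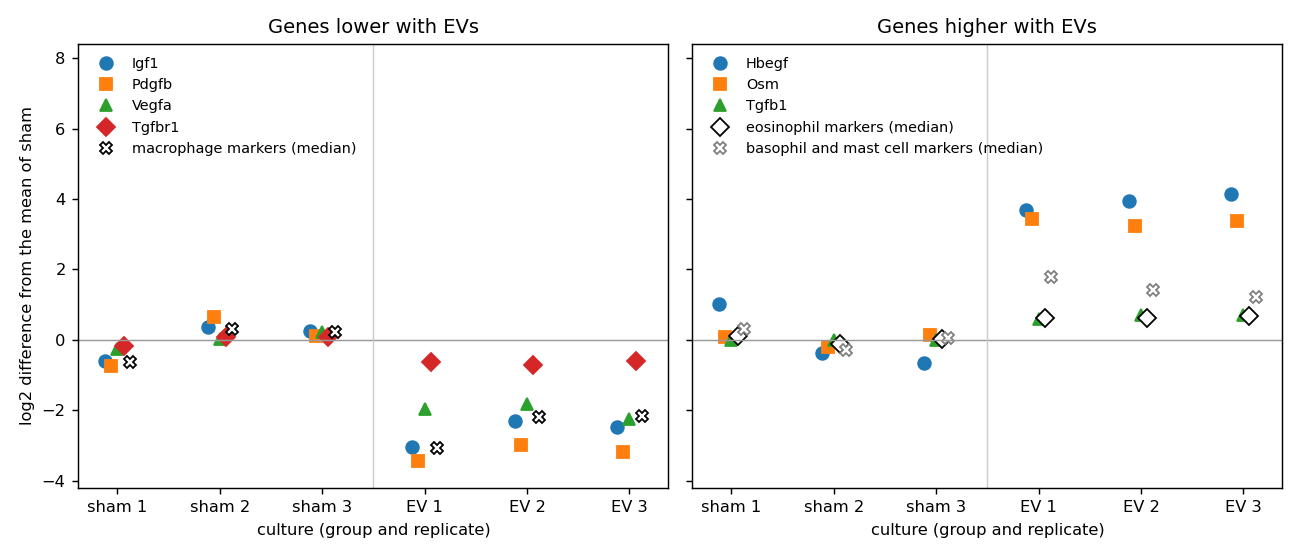
Log2 difference from the sham mean in each of the 6 samples, for the genes that fell beside the median macrophage marker (left) and for those that rose beside the median eosinophil and basophil or mast cell markers (right). Igf1 and the median macrophage marker are both lowest in EV sample 1, at -3.03 and -3.08. Vegfa is lowest in EV sample 3, at -2.24, and Tgfbr1 in EV sample 2, at -0.73. Over all EV samples, no gene on the left has the order of the median macrophage marker.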

How the data were processed

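Per the labels, reads of 6 poly(A)-selected libraries were handled with FastQC, Cutadapt and Salmon against mm10 (GRCm38); versions and the strand setting are not given in the sources used here. The authors deposited a table of estimated counts per gene, which was used here, and DESeq2 comparison tables with fold changes, p-values and normalized values, which were not used. Estimated counts were rounded and tested with edgeR 4.0.16 in R 4.3.3 (filterByExpr, TMM scaling, quasi-likelihood test of EV against sham, Benjamini-Hochberg adjustment over 13498 genes, call at an adjusted p under 0.01). The scripts were checked on simulated data. Levels per kilobase used the longest protein-coding GENCODE transcript. For each of the 8 growth factor and receptor genes, at most 2.34% of its 31-base words occurred in another gene. The genes of the pathway and marker lists were not checked in that way. The libraries are labelled biological replicates, and whether each came from its own animal is not stated, so p-values measure the spread between these samples. An exact permutation test of 3 against 3 cannot go below 0.1. The genes and lists were chosen with earlier results of these data known. Named pathway genes were at most 4 per list, those past the test with the largest changes, plus receptor or ligand partners. Those marked as named after their values were seen came in addition. Alternatives were RLE scaling, no TMM, no filter, DESeq2 1.42.0, limma 3.58.1 (voom), a replicate block, a threshold of 0.05 and leaving out each sample.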

Additional observations from a re-analysis of the deposited data

How the results depend on the processing

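Over 12 alternative fits, the 8 genes kept their directions, and 7 kept their side of the threshold; Tgfbr2 passed without TMM scaling (-0.33, adjusted p = 0.00105), and at a threshold of 0.05 it would count among the lower genes. Log2 fold changes ranged from 3.46 to 4.54 for Hbegf, 3.20 to 3.42 for Osm, 0.52 to 0.71 for Tgfb1, -0.80 to -0.61 for Tgfbr1, -2.16 to -1.88 for Vegfa, -2.86 to -2.43 for Igf1 and -3.59 to -2.94 for Pdgfb. Hbegf was at 4.54 without sham replicate 1. Over all genes, 1036 were higher without TMM scaling against 1632 with it, and 2478 were lower at an adjusted p under 0.05 against 1572 at 0.01. Leaving out each sample gave 1071 to 1833 higher and 1018 to 1698 lower genes; the counts were 1113 and 1044 without EV replicate 2, and 1071 and 1018 without EV replicate 3, each of these having fewer samples. Blocking on the replicate number, 1794 genes were higher and 1781 lower, and no call among the 8 genes changed. Whether equal numbers pair cultures across the groups is not stated, so the main fit used treatment alone. Deviations of same-numbered samples correlated at 0.117, 0.0846 and 0.0371 across genes, and 5 of 6 samples correlated best with their own number. These values do not settle whether the cultures were paired. Depth limits Hbegf most, with 9 to 41 counts per sham library.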
